A study of Homo sapiens with 2 samples.

Results

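First-intron peaks beyond 5 kb are the OTX2-bound regions of chromosomes 1 to 22 whose summit, the base with the most immunoprecipitated fragments, fell in intron 1 of the canonical transcript of a protein-coding gene and more than 5 kb from every protein-coding transcription start site (TSS). There were 11547 of them among 137412 peaks deposited and 133985 on the autosomes, which is 8.62% of the autosomal peaks (95% Wilson interval 8.47 to 8.77). Distance and gene annotation chose them, and neither their height nor their enrichment was used.

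The data came from 1 chromatin immunoprecipitation sequencing (ChIP-seq) library made with an OTX2 antibody and 1 input library, which is chromatin sequenced with no immunoprecipitation. Both were from D283, an established human medulloblastoma cell line, grown as tumorspheres in medium with EGF and basic FGF and left untreated as OTX2-positive controls. The ChIP library held 84980793 fragments, 61259377 of them after filtering, and the input held 32292980, of which 22521186 remained. With 1 library of each kind and 1 cell line there is no replicate spread and no test, so every interval here covers counting error only, and neighbouring peaks are not independent.

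OTX2 is a homeodomain transcription factor of the bicoid class that patterns the forebrain and midbrain in the embryo, is needed in photoreceptors and pinealocytes, and is highly expressed in Group 3 and Group 4 medulloblastoma. Its homeodomain binds DNA containing TAATCC or TAATCT. First introns are on average the longest introns of human genes, and many enhancers, which act on a promoter from a distance, lie within them. A peak in an intron does not show which gene, if any, it acts on.

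Sequence could be read for 13 first-intron peaks, those whose summit fell inside a 300-base RefSeq window around an annotated gene start (build GRCh38.p14), and 5 of the windows are shown because they hold an OTX2 motif close to the summit, with a sixth that holds none. Most of these starts belong to non-coding RNAs inside the host intron, so they are not a sample of all first-intron peaks. Capitals mark TAATCC or TAATCT, or the reverse complement of either, and each window is written 5′ to 3′ along the strand of the gene named before it.
C18orf15: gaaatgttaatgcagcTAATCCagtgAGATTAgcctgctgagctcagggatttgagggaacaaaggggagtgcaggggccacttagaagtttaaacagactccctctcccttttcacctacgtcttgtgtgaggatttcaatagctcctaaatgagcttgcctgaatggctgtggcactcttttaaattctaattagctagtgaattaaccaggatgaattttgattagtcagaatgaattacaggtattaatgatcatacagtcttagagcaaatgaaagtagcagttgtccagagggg
CREB3L2-AS1: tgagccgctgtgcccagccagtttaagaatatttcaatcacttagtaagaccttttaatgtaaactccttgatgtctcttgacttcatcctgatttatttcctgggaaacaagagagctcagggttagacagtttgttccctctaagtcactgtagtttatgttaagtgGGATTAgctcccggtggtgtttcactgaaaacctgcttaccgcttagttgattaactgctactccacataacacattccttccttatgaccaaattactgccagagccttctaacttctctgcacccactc
CADM1-AS1: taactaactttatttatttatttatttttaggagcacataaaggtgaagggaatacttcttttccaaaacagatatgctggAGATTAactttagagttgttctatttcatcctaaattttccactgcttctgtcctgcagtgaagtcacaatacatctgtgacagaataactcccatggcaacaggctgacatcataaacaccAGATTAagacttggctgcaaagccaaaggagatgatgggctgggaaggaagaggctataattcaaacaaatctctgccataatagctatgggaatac
LOC100126584: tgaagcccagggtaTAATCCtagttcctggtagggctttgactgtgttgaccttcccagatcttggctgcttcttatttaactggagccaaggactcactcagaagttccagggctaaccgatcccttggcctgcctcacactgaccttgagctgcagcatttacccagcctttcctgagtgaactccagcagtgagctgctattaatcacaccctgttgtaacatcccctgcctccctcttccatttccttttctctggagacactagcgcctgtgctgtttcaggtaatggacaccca
SNCAIP-AS2: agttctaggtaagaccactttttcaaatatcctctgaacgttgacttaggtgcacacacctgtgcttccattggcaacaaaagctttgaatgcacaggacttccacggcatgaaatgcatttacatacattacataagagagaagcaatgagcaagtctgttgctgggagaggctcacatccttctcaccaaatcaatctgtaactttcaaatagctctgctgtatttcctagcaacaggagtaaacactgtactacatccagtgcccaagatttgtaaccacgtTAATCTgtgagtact
LOC105375166: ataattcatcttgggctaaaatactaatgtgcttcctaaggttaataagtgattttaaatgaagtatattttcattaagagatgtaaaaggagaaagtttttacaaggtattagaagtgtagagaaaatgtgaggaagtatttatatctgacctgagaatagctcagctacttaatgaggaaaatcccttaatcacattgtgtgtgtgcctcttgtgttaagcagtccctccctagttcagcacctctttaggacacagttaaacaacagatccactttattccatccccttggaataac

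The C18orf15 window, at chr18:13239293-13239592 on the plus strand, lies in the first intron of LDLRAD4, which encodes an inhibitor of TGF-beta signalling, 20.6 kb from its TSS. Its peak had 255 fragments at the summit and a fold enrichment of 28.5, and a TAATCC and a TAATCT on opposite strands stand next to each other, the nearer with its centre 17.5 bases from the summit. Fold enrichment is the ratio of ChIP to local input signal that the peak caller gave at the summit. The CREB3L2-AS1 window, at chr7:137953098-137953397 on the plus strand, lies 48.8 kb into CREB3L2, a bZIP transcription factor gene, and its peak had 144 fragments and a fold enrichment of 21.4. The CADM1-AS1 window, at chr11:115396506-115396805 on the plus strand, lies 108 kb from the TSS of CADM1, a cell adhesion molecule, and holds 2 copies of TAATCT under a peak of fold enrichment 16.6.

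The LOC100126584 window, at chr6:125197768-125198067 on the minus strand, lies in TPD52L1, and its only motif is centred 4.5 bases from the summit of a peak of 117 fragments and fold enrichment 11.9. The SNCAIP-AS2 window, at chr5:122323311-122323610 on the minus strand, lies in SNCAIP, a synphilin gene whose duplication marks some Group 4 tumours. Its motif was 1.5 bases from the summit of a weaker peak of 53 fragments and fold enrichment 5.00. The LOC105375166 window, at chr7:15667697-15667996 on the plus strand, lies in MEOX2, a homeobox gene, and holds neither motif although its peak reached a fold enrichment of 10.8 with 72 fragments.

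Of the 13 windows, 7 held TAATCC or TAATCT on either strand, which is 53.8% (29.1 to 76.8). In all 7 the motif nearest the summit was within 50 bases of it. Of all 33725 autosomal RefSeq windows, 12.8% held either motif, 6.37% TAATCC and 7.20% TAATCT. At the 13 summit positions, the share of all windows with a motif within 50 bases averaged 4.23%. Those windows were not matched to the 13 for base composition or for holding a peak. The share within 50 bases of a summit was 41.0% for 39 later-intron peaks, 32.2% for 298 intergenic peaks and 13.0% for 4344 peaks within 5 kb of a TSS. The interval of the first-intron share holds the later-intron and intergenic shares, so no difference from them was detectable in 13 windows. A match of letters is a description and not a measured binding site.

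Across all 11547 first-intron peaks the median fold enrichment was 6.15 (95% interval 6.06 to 6.25), the middle 50% lay between 4.18 and 10.6, and the range was 1.81 to 51.5. The median summit held 54 fragments, with a lowest value of 15 and a highest of 419. A fold enrichment of at least 10 was reached by 27.1% (26.3 to 28.0) of them, against 26.3% of all deposited peaks. The median peak was 445 bases long, and 8.07% were at least 1000 bases. First-intron peaks were thus of ordinary strength for this library.

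Their strength differed little from that of other distal peaks. The 34197 peaks in later introns beyond 5 kb had a median fold enrichment of 6.34 (6.26 to 6.39), slightly above the first-intron value. The 56400 intergenic peaks beyond 5 kb had a median of 6.26 (6.25 to 6.32), whose interval meets that of the first-intron peaks. Peaks within 5 kb of a TSS were weaker, with a median of 5.42 (5.36 to 5.50) and 19.1% at 10 or more. Local input was at least 3 times its floor at 4.35% of first-intron peaks, 4.40% of later-intron peaks and 4.35% of intergenic peaks.

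**Figure D1:**
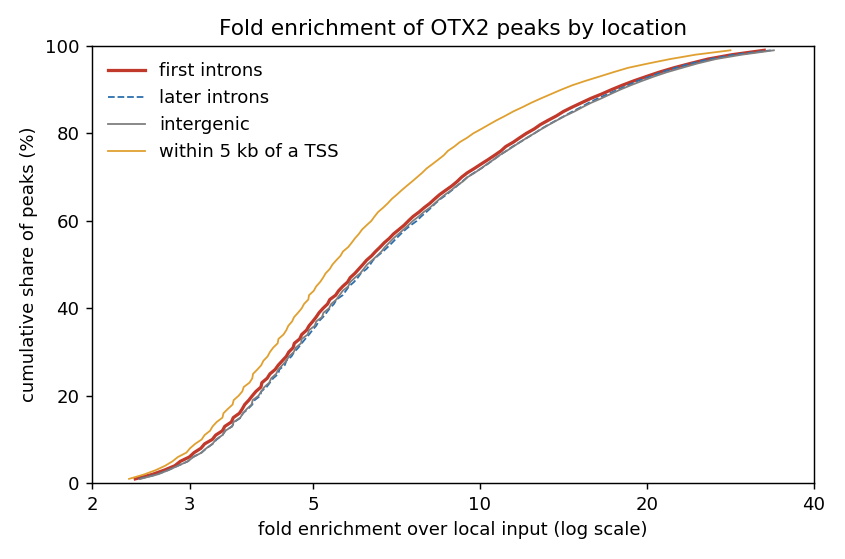
Cumulative share of peaks (percent, vertical) at or below each fold enrichment of ChIP over input (horizontal, log scale) for first-intron, later-intron and intergenic peaks beyond 5 kb and for peaks within 5 kb of a protein-coding TSS. The 3 distal classes nearly coincide, with medians of 6.15, 6.34 and 6.26, and the peaks near a TSS lie to their left with a median of 5.42.

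First introns held more peaks for their length than other distal sequence. There were 63.1 peaks per Mb (61.9 to 64.2) over 183 Mb of first intron lying beyond 5 kb of any protein-coding TSS. Later introns held 49.7 per Mb (49.2 to 50.3) over 688 Mb, a first-to-later ratio of 1.27 (1.24 to 1.29). Intergenic sequence held 37.9 per Mb, a ratio of 1.66 (1.63 to 1.70). The 5 kb around TSSs held more, 88.0 per Mb.

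The intergenic length includes stretches that could not be sequenced or mapped, so its density is a lower value than mappable sequence alone would give. Without intergenic stretches of over 1 Mb that held no peak, an alternative added after the data were seen, the ratio was 1.53. The density of first introns was above that of later introns on 21 of 22 autosomes and its interval on 20 of them, and above that of intergenic sequence on all 22. Chromosome 16 was the exception, with a ratio of first to later introns of 0.997 (0.849 to 1.17), and on chromosome 8 the interval of the ratio, 1.08, reached below 1 (0.982 to 1.19). Chromosome 7 had a low density in every class, with 37.0 first-intron, 27.5 later-intron and 22.5 intergenic peaks per Mb. Chromosomes 16 and 19 were about as low in first introns, at 38.6 and 39.0 per Mb.

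Density in first introns fell with distance from the nearest TSS. It was 67.9 per Mb at 5 to 10 kb, 66.1 at 10 to 20 kb and 63.6 at 20 to 50 kb. It was then 62.4 at 50 to 100 kb, 55.5 at 100 to 200 kb and 33.2 at 200 to 500 kb. Intergenic sequence fell too, from 51.1 per Mb at 5 to 10 kb to 44.7 at 50 to 100 kb and 38.0 at 200 to 500 kb. The ratio of first introns to intergenic sequence was 1.33 at 5 to 10 kb, 1.39 at 50 to 100 kb and 0.874 at 200 to 500 kb. Later introns did not show this fall, with 45.6 per Mb at 5 to 10 kb, a highest value of 53.1 at 50 to 100 kb and 49.0 at 200 to 500 kb.

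The ratio of first to later introns therefore shrank outward. It was 1.49 (1.42 to 1.57) at 5 to 10 kb, 1.40 at 10 to 20 kb, 1.24 at 20 to 50 kb, 1.17 at 50 to 100 kb and 1.12 (1.04 to 1.20) at 100 to 200 kb. At 200 to 500 kb it had turned, at 0.678 (0.594 to 0.774). Beyond 500 kb only 12 first-intron peaks remained and the interval of the ratio, 0.904, ran from 0.510 to 1.60. With both classes weighted to the distances of first introns, the ratio to later introns was 1.28 (1.25 to 1.31) and that to intergenic sequence 1.35 (1.32 to 1.38).

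The first-intron sequence more than 200 kb from a TSS belonged to only 59 genes, and 5 of them, HS6ST3, CNTNAP2, NALF1, CADM2 and LRRC4C, supplied 28.5% of it. Several of these genes encode neuronal surface or channel-associated proteins. Peak strength ran the other way from density. In first introns the median fold enrichment was 5.95 (5.79 to 6.21) at 5 to 10 kb and 6.88 (6.26 to 7.30) at 100 to 200 kb. It was 6.18, 6.10 and 6.15 in the classes between. The share at 10 or more was 24.7% at 5 to 10 kb and 31.5% at 100 to 200 kb. Other distal peaks rose over the same distances, in median from 6.25 to 6.54 in later introns and from 5.95 to 6.38 in intergenic sequence. Their shares at 10 or more rose from 26.7% to 29.5% and from 25.5% to 29.1%.

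**Figure D2:**
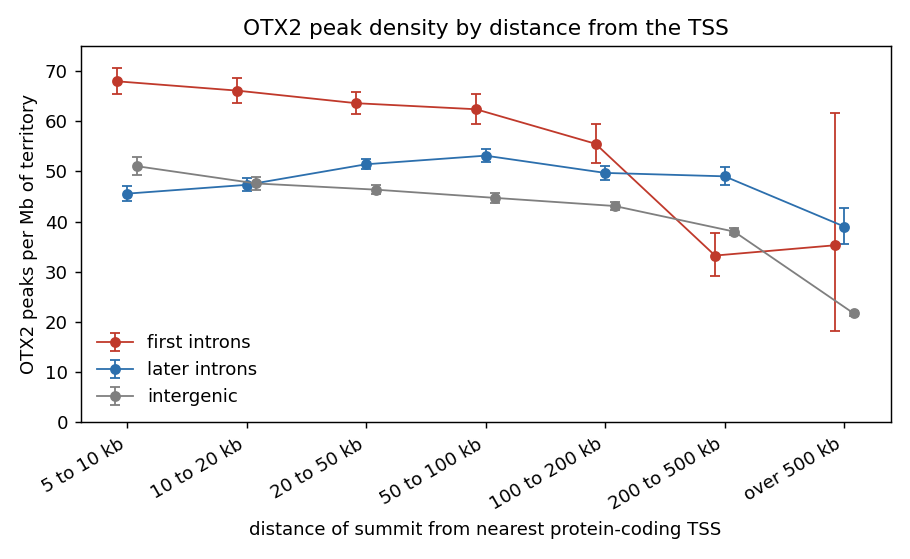
OTX2 peaks per Mb (vertical) against distance from the nearest protein-coding TSS (horizontal, kb classes) for first introns, later introns and intergenic sequence, with 95% Poisson intervals as bars. First introns start highest, at 67.9 per Mb, and drop below later introns at 200 to 500 kb, where they hold 33.2 against 49.0.

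Values on either side of the 5 kb limit were close. The 345 first-intron peaks from 4.5 to 5 kb stood at 70.4 per Mb with a median fold enrichment of 5.54, and the 308 from 5 to 5.5 kb at 66.4 per Mb with a median of 5.94. Of 18626 peaks in first introns at any distance, 62.0% lay beyond 5 kb. The median first-intron peak lay 31.0 kb from the TSS of its own gene and 21.5 kb from the nearest TSS, which belonged to the host gene for 95.7% of peaks. There were 1780 peaks, 15.4%, more than 100 kb from their own TSS.

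Density also stepped down with intron number. It was 63.1 per Mb in intron 1, 56.4 in intron 2, 52.6 in intron 3, 53.1 in intron 4, 48.3 in introns 5 to 9 and 44.4 from intron 10 on. Held to 5 to 20 kb from a TSS, the same order ran 67.0, 56.0, 47.7, 45.3, 42.1 and 42.9. Intron 2 was thus nearest to intron 1 in both series, and its interval at 5 to 20 kb, 53.8 to 58.3, did not meet that of intron 1, 65.2 to 68.8.

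The difference was also present between introns of the same gene. In the 3012 genes with at least 10 kb of both, first introns held 64.1 and later introns 51.3 peaks per Mb, a ratio of 1.25 (1.22 to 1.28). The first intron had the higher density in 1514 of these genes, the later introns in 1226, and 272 had equal values. These 3012 genes shared 9817 first-intron peaks, so counts per gene were small. The split between genes cannot show in which single genes the difference held.

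Density changed little along the intron. The 3222 first introns longer than 20 kb were divided into 5 equal parts, and density beyond 5 kb was 66.3 per Mb (63.0 to 69.7) in the part next to the host gene's start, then 63.3, 62.8 and 60.2, and 63.3 in the last. Later introns of that length stayed between 52.8 and 54.7 per Mb in all 5 parts. The median gap to the nearest peak of any class was 3.67 kb for first-intron, 4.47 kb for later-intron and 5.04 kb for intergenic peaks. A neighbour within 2 kb was found for 28.9%, 25.8% and 24.5% of them. A higher density shortens gaps by itself, and clustering beyond the density of each class was not tested.

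Few first-intron peaks lay at other annotated starts. Only 75, 0.650%, were within 1 kb of the TSS of a long non-coding RNA, and such windows made up 0.664% of the first-intron sequence. A further class, the starts of non-coding transcripts of protein-coding genes, had 144 peaks within 1 kb, 1.25%, in 1.09% of the sequence. Exons of any other transcript held 140. Alternative starts of these kinds thus held about the share of peaks that their length holds. Peaks overlapped 3 microRNA hairpins, MIR3973 in LDLRAD3 with a fold enrichment of 6.51, MIR4306 in CLYBL with 6.35 and MIR12116 in FAM163A with 2.15.

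First-intron peaks went together with OTX2 peaks at the start of the host gene. Of 18978 autosomal protein-coding genes, 17976 had a first intron and 7052 had some of it beyond 5 kb of every TSS. Of these 7052 genes, 3232 held at least 1 first-intron peak, 45.8% (44.7 to 47.0). The study searched for binding in a window that opens 5 kb before a TSS and closes 2 kb after it, and the same window at the canonical TSS was used here. In the 4618 genes with an OTX2 peak in that window, 51.9% (50.5 to 53.4) had a first-intron peak, and density was 73.1 per Mb. In the 2434 genes without one, 34.2% (32.4 to 36.1) had a first-intron peak, and density was 42.2 per Mb.

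The ratio to later introns followed the same division. Genes with a peak at their start had a first-to-later ratio of 1.32 (1.29 to 1.36), and genes without one had 1.05 (1.00 to 1.10). Their later introns differed too, at 55.2 and 40.3 per Mb, so the higher density was not limited to intron 1. By distance, first introns of genes with a start peak fell from 81.1 per Mb at 5 to 10 kb to 65.0 at 100 to 200 kb. Those of the other genes held 42.9, 43.2, 41.8 and 47.8 per Mb in the first 4 classes and 36.8 at 100 to 200 kb. How chromatin accessibility or host gene expression moved with this division was not tested.

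**Figure D3:**
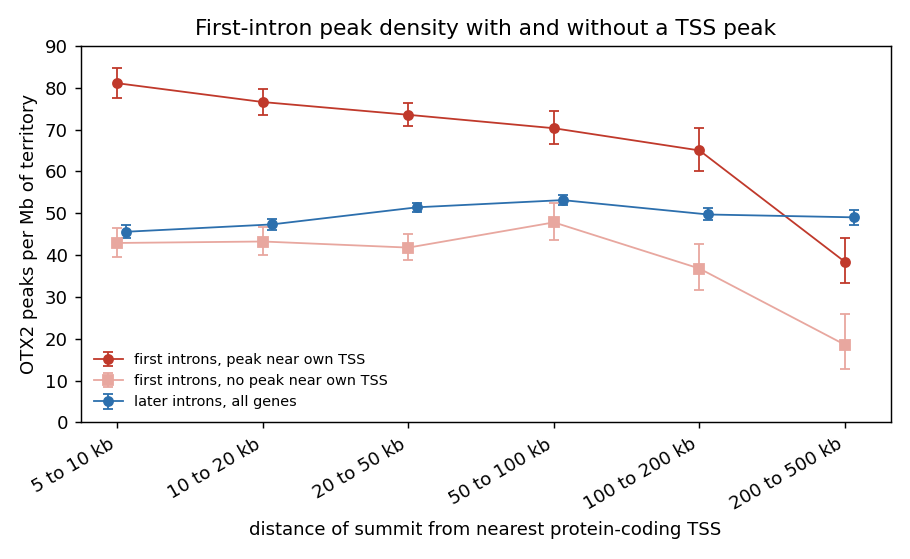
OTX2 peaks per Mb (vertical) by distance from the nearest protein-coding TSS (horizontal, kb classes) for first introns of genes with and without an OTX2 peak in the window around the canonical TSS (5 kb before it to 2 kb after it), and for later introns of all genes, with 95% Poisson intervals as bars. Genes with a peak at their start lie higher than those without in each of the 6 distance classes plotted, with 81.1 against 42.9 per Mb at 5 to 10 kb.

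Among the 3232 genes with a first-intron peak, 833 (25.8%) had no peak in the window at their canonical TSS. Of all 7052 eligible genes, 65.5% had such a peak and 2434 did not. Other annotated starts of these genes were not searched. A search limited to the canonical start would not list these 833 genes. One such gene is PDE4D, a cAMP phosphodiesterase, which held more first-intron peaks than any other gene. Another is FMNL2, a formin that builds actin filaments.

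Most genes held few peaks, and a small number held very many. Exactly 1 first-intron peak was present in 1256 genes, at least 5 in 727, at least 10 in 242 and at least 20 in 54. The 323 genes with the most peaks, 10% of those with any, held 39.6% of the peaks assigned to genes and 27.6% of the first-intron sequence. Number followed length, with a Spearman coefficient of 0.675 between first-intron length beyond 5 kb and number of peaks across the 7052 genes, which share 1 library and are not replicates. A first-intron peak was present in 2.12% of genes with under 1 kb of such sequence, 73.1% of those with 20 to 50 kb and 96.8% of those with over 200 kb. Of the peaks, 11378 lay in the first intron of 1 gene and 169 in those of several overlapping genes.

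PDE4D held 46 peaks in 622 kb, which is 7.39 per 100 kb, with fold enrichments from 2.83 to 34.4. MAML2, a coactivator of Notch signalling, held 44 in 245 kb, or 18.0 per 100 kb, and 15 of them had a fold enrichment of at least 10. EXT1, which builds heparan sulfate chains, held 42 in 270 kb, or 15.6 per 100 kb. NALF1, an accessory subunit of the NALCN sodium leak channel, also held 42, spread over 652 kb at 6.44 per 100 kb. These 4 genes show 2 arrangements, long introns filled at about the average density and shorter ones filled at more than that.

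KCNIP4, a potassium channel interacting protein, had 41 peaks at 4.02 per 100 kb, the lowest density of the 10 genes with the most peaks. CMSS1 had 40 at 13.6 per 100 kb. GPC6, a glypican, ROR1, a receptor for WNT5A, and RORA, a nuclear receptor needed by Purkinje cells, had 38 each, at 12.1, 16.5 and 6.97 per 100 kb. FMNL2 had 37 at 20.4 per 100 kb (14.4 to 28.1), the densest of the 10, against 12.2 in its later introns.

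Among genes with at least 20 kb of eligible first intron and at least 5 peaks, PTPN13, a protein tyrosine phosphatase, was the densest, with 15 peaks in 29.6 kb or 50.7 per 100 kb (28.4 to 83.7). Its later introns held 5.39 per 100 kb. GRAMD1B, a sterol transfer protein, followed with 42.8, DPYD, which breaks down pyrimidines, with 39.8, DNMBP, an activator of CDC42, with 36.6 and CUEDC1 with 35.2. These clusters were mostly made of moderate peaks, since the median fold enrichment was 5.92 in PTPN13 and 3.80 in DPYD. The lists of densest genes were picked for their density, so these values are a description.

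**Figure D4:**
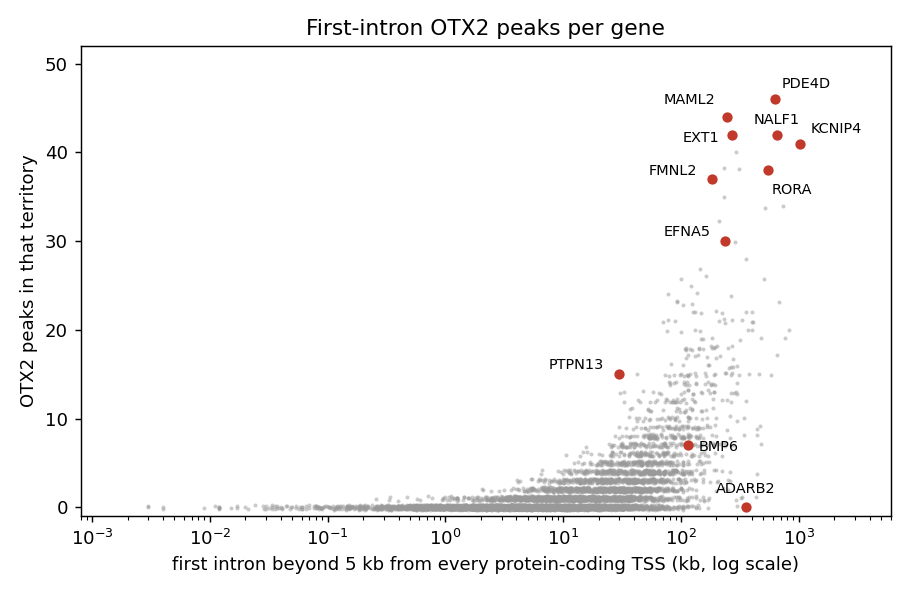
Number of first-intron OTX2 peaks (vertical, points spread slightly to separate equal counts) against the length of first intron beyond 5 kb of every protein-coding TSS (horizontal, kb, log scale), 1 point per gene for 7052 genes, with named genes in red. Counts rise with length, PTPN13 stands above genes of its length with 15 peaks in 29.6 kb, and ADARB2 has 0 in 353 kb.

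The strongest first-intron peak was in BMP6, a secreted ligand of the bone morphogenetic protein (BMP) family, at chr6:7823855-7825144, 98.5 kb from the TSS. Its summit held 349 fragments (Poisson interval 313 to 388) and its fold enrichment was 51.5, above 99.99% of all autosomal peaks. The peak in RARRES1, a retinoic acid responsive gene, came next at chr3:158724000-158724706, at 8.08 kb from the TSS, with a fold enrichment of 49.3 and 333 fragments. FMNL2 at chr2:152430949-152431914 and DIAPH3 at chr13:60157958-60159832, both formin genes, had fold enrichments of 45.5 and 45.0. The highest values were thus found both near the start and far from it.

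TRPM3, a cation channel, had 378 fragments and a fold enrichment of 44.5 at chr9:70880490-70882616, 240 kb from its own TSS and 12.4 kb from the nearest one. RTN3, a reticulon of the endoplasmic reticulum, had 44.5 at chr11:63698884-63700740. PTPRG, a receptor tyrosine phosphatase, had 44.2 at chr3:61608572-61609178. PRKCE, a protein kinase C, had 43.7 at chr2:45814786-45815824, 163 kb from the TSS. The intervals of the fragment counts of these 8 peaks overlap between neighbours in the order, so their order is not resolved.

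Genes of 16 lists were then compared by the density of peaks in their eligible first introns, where all genes pooled held 62.9 per Mb (61.8 to 64.0). The TGF-beta and BMP pathway, whose ligands signal through paired receptor kinases to SMAD proteins, stood at 108 per Mb (87.5 to 131). Of its 22 genes with eligible sequence, 20 held a first-intron peak (90.9%), with 100 peaks in all. Of all such genes 45.8% held one, but the first introns of the list were longer, with a median eligible length of 34.3 kb against 10.8 kb, and 73.1% of all genes with 20 to 50 kb held one. Peaks were spread over the list, and without TGFB2, which held 10, the density was 103 (82.6 to 126). Later introns of the same genes held 79.8 per Mb against 50.5 for all genes, so the higher density was not limited to first introns.

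Among the ligands, BMP6 held 7 peaks, TGFB2 10, BMP5 and BMP7 3 each and TGFB3 1. The receptors with most peaks were ACVR1 and BMPR1A with 10, BMPR1B with 9 and BMPR2 with 8. The strongest peak of ACVR1, a type I receptor of BMPs, had a fold enrichment of 35.9 with 322 fragments at chr2:157845734-157846482, and that of BMPR2 had 28.8. Of the SMADs, SMAD9 held 7, SMAD3 6, SMAD5 4, SMAD2 3 and SMAD4 2, and SMAD1 was without any, as was the receptor ACVR2B. First-intron peaks thus lay in genes at each level of the pathway.

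Photoreceptor genes held 115 per Mb (81.8 to 157), an interval that holds the TGF-beta and BMP value, with 39 peaks in 7 of 14 genes (50.0%, near the 45.8% of all genes). THRB, the thyroid hormone receptor that specifies cone types, held 20 of them, with fold enrichments from 2.1 to 29.9, and EYS, a retinal extracellular protein, held 9. Without THRB the density was 97.6 (58.8 to 152), and its interval held the value of all genes. The later introns of these genes held 38.3 per Mb, below the 50.5 of all genes. EYS alone supplied 1879 kb of their 2.48 Mb and 48 of their 95 peaks, at 2.56 per 100 kb. The later-intron value of the list therefore rests largely on EYS.

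A single gene also gave much of the value of the EPH and WNT lists. EPH receptors and ephrins, which act in contact-dependent guidance of axons, stood at 90.1 per Mb (66.0 to 120), but EFNA5 held 30 of the 46 peaks and the rest of the list 58.8 per Mb. The WNT pathway stood at 84.5 per Mb (65.4 to 108), with ROR1 holding 38 of 66 peaks, and at 50.8 per Mb without ROR1. Of its 21 eligible genes 7 held a peak, 33.3% (17.2 to 54.6), an interval that holds the 45.8% of all eligible genes. The receptor gene EPHB2 had only 1 first-intron peak, but that one had a fold enrichment of 35.5 with 288 fragments at chr1:22763710-22764755. ROR2, the other ROR receptor, held 14 peaks.

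The other guidance lists had values on both sides of that of all genes. Semaphorin receptors held 82.9 per Mb, with an interval of 37.9 to 157 from 9 peaks. Of those, 5 were in PLXNA4, and without it the value was 87.1 (23.7 to 223). Semaphorin ligands held 52.3 per Mb, with 8 of 26 peaks in SEMA6D, whose strongest had a fold enrichment of 27.7, and 3 in SEMA3E, and 38.6 per Mb without SEMA6D. The SLIT, ROBO and netrin list held 56.8 per Mb, with 32 of 85 peaks in the netrin receptor gene UNC5C and 41.2 per Mb (30.8 to 53.9) without it. SLIT1, a secreted repellent, had a first-intron peak of fold enrichment 36.8 at chr10:97178990-97180480, and ROBO2, a SLIT receptor, one of 28.2. Neurexins, neuroligins and contactins, which are synaptic and axonal adhesion proteins, held 37.9 per Mb (29.3 to 48.2), with 66 peaks. Of these, 17 were in CNTNAP2, 13 in CNTNAP5 and 11 in CNTN1. CNTNAP2 lowered the value of the list, which was 45.0 per Mb (33.3 to 59.5) without it. The first introns of the list were long, with a median eligible length of 137 kb against 10.8 kb for all genes. All genes with 100 to 200 kb held 65.5 per Mb and those with over 200 kb held 48.3. How far length goes with the low value of this list was not tested.

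Lists tied to the tumour and to hindbrain identity gave few eligible genes. The drivers of Group 3 and Group 4 medulloblastoma held 71.6 per Mb (52.6 to 95.3), with 21 of 47 peaks in the receptor kinase gene ERBB4 and 10 in SNCAIP. ERBB4 lowered the value of the list, which was 101 per Mb (66.0 to 148) without it. Only 2 rhombic lip and hindbrain transcription factor genes had eligible sequence, and all 38 peaks of that list were in RORA. Proneural and neuronal differentiation genes held 40.6 per Mb (20.3 to 72.6), or 26.4 without ELAVL2, where ELAVL2, a neuronal RNA-binding protein, had 5 peaks and MAP2, a dendritic microtubule protein, had 4.

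Lists of other tissues held 47.4 per Mb for skeletal muscle (4 peaks), 26.2 for liver (2 peaks, or 15.9 without NR1H4) and 30.2 for blood lineages (5 peaks). The cell cycle list, which belongs to no single tissue, held 31.7 (3 peaks). With so few peaks, the intervals of all 4 lists held the value of all genes. Single peaks in them could still be strong, as in NR1H4, the bile acid receptor, with a fold enrichment of 33.4, and in ACTN2, a sarcomeric actinin, with 23.2 and 345 fragments. Weaker ones were found in HNF4A (4.02), MEF2C (7.28), LCK (9.81), CD38 (5.80), E2F5 (9.69) and E2F3 (7.13).

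**Figure D5:**
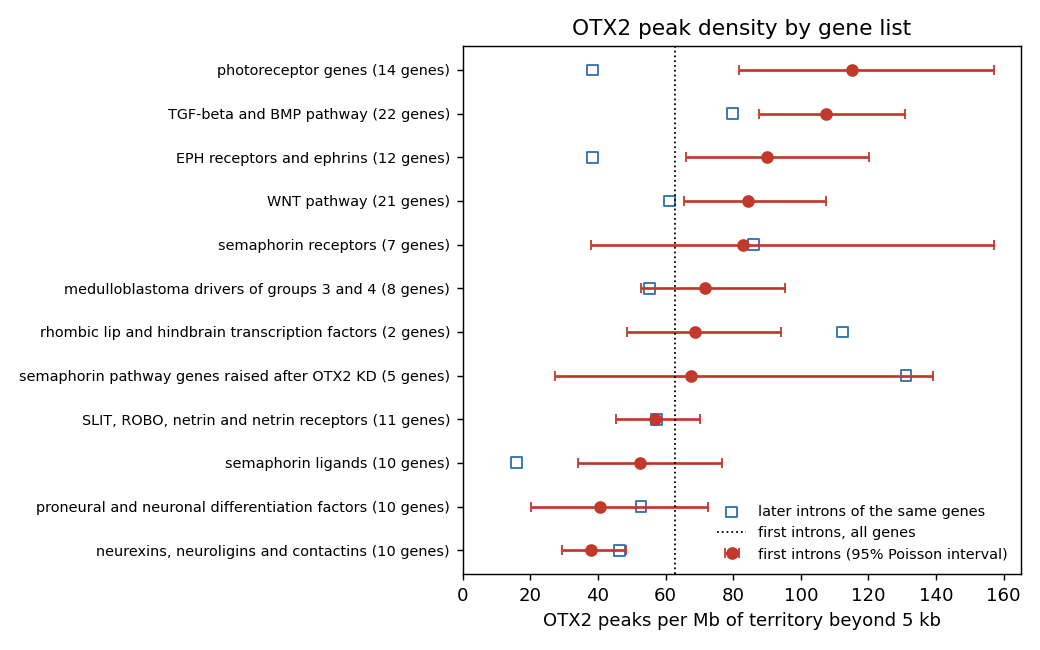
First-intron OTX2 peaks per Mb (horizontal) for the gene lists with at least 7 first-intron peaks, with 95% Poisson intervals as bars, later introns of the same genes as open squares and the first-intron value of all genes, 62.9, as a dotted line. The intervals of photoreceptor genes (115), the TGF-beta and BMP pathway (108), EPH receptors and ephrins (90.1) and the WNT pathway (84.5) lie above the line, and of these 4 only that of the TGF-beta and BMP pathway does so without its leading gene, and neurexins, neuroligins and contactins at 37.9 lie below it.

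The study followed 9 semaphorin pathway genes that rose after OTX2 knockdown, and 5 of them had eligible first introns. Of these 5, 3 held first-intron peaks (60%, interval 23.1 to 88.2), 7 in all at 67.5 per Mb (27.2 to 139). Of all eligible genes 45.8% held one. The median eligible length in the list was 21.4 kb, and 73.1% of all genes with 20 to 50 kb held one. NRP2, a neuropilin coreceptor, had the strongest, at chr2:205693575-205694094 and 11.4 kb from the TSS. Its fold enrichment was 16.4 and its summit held 110 fragments (90.4 to 133), and the other NRP2 peak had a fold enrichment of 4.18. PLXNA2, a plexin receptor, had 2 peaks with fold enrichments of 5.01 and 5.28 in 21.4 kb, or 9.35 per 100 kb (1.13 to 33.8). Its later introns held 36 in 185 kb, or 19.5 per 100 kb, a value inside that interval.

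SEMA6A, a transmembrane semaphorin, had 3 first-intron peaks with fold enrichments from 3.30 to 5.20. SEMA4D held 0 in 21.5 kb, where the upper Poisson limit is 17.2 per 100 kb, and PLXND1 held 0 in 7.15 kb, where it is 51.6. With sequences this short, an absence of peaks was not distinguishable from the average density of 62.9 per Mb. OTX2 itself held no first-intron peak beyond 5 kb, since none of its first intron is that far from every TSS.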

How the data were processed

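OTX2 and input libraries from D283 tumorspheres were aligned by the authors to GRCh38 with Bowtie2 2.2.4, peaks were called with MACS2 2.1.0.20140616, and peaks at ENCODE blacklisted locations were masked. The deposited signal at each summit is the pileup of ChIP fragments scaled down by MACS2 to the input depth, so that 1 ChIP fragment counts as 0.735, and every pileup was whole in fragments within 0.02. The deposited fold enrichment is the ratio of pileup plus 1 to local input plus 1, and the deposited −log10 q values were made by MACS2 from Poisson tests of pileup against local input and were used only as an alternative threshold. Both libraries enter the 1 peak table, so it is one comparison with no replicate.

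Summits were classed by GENCODE release 44 in Python 3.11.15 (pandas 2.3.3, scipy 1.17.1), using the GRCh38 exon position that the annotation records for each exon. A TSS was the 5′ end of a gene record or a protein-coding transcript of a protein-coding gene, 78542 positions in all. Densities divide peaks by the length of each class beyond 5 kb of every TSS, with 95% Poisson intervals, and shares have Wilson intervals. Fragment intervals are Poisson. Intergenic length ran from the first to the last peak of each chromosome. Density ratios were checked on simulated summits with known answers.

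The genome given here is GRCh37, so no peak sequence was read by coordinate, and the motif search planned at all summits was made only on RefSeq windows of GRCh38.p14 that reach from 250 bases before to 50 after a gene start. Named genes are the 10 strongest peaks (2 of them are not reported here), the 10 genes with most peaks, the 5 densest genes, the 2 genes of each list with the strongest peaks, and OTX2 with the semaphorin pathway genes of the study; other members of the TGF-beta and BMP list, genes that lead a list, hosts of the printed windows and of microRNA hairpins, long introns without peaks and the genes with most distant sequence were named after their values were seen. The peak class, gene lists and comparisons were chosen with earlier results of these data known.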

Additional observations from a re-analysis of the deposited data

How the results depend on the processing

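The 7 main results were recomputed under up to 12 alternative settings, which gave 56 values. Of these, 37 stayed within the counting interval of the reported value (for counts of peaks, within 1.5 times) and 19 moved beyond it. Only the density ratios had a direction that could turn, and 0 of their values did so. With −log10 q of at least 5, the median fold enrichment was 6.90, 31.0% of first-intron peaks reached a fold enrichment of 10 and 43.5% of genes held one. With a fold enrichment of at least 5 there were 7256 first-intron peaks, the ratio to later introns was 1.23 and to intergenic sequence 1.62, and 37.2% of genes held one. With only the starts of gene records as TSSs, these ratios were 1.31 and 1.73 and the share of genes 43.3%. Beyond 2 kb in place of 5 kb they were 1.31 and 1.70, with a median fold enrichment of 6.04 and 39.1% of genes. Beyond 10 kb the ratio to later introns was 1.23 and the share of genes 51.5%. With TAATCC alone, 23.1% of the 13 windows held the motif near the summit. In alternatives added after the data were seen, the ratio to intergenic sequence was 1.71 with the starts of transcripts of any kind as TSSs, and 1.53 without intergenic stretches of over 1 Mb that held no peak. Numbers of peaks, of genes and of windows move with thresholds and distances by construction. The cause was not tested for the other shifts. No paired analysis was possible because the series holds 1 ChIP and 1 input library, and no replicate was left out for the same reason. Counting intervals leave out differences between cultures, antibodies and preparations, and 13 windows are too few to resolve motif shares.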

Other observations

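Some of the longest first introns held no OTX2 peak at all. Of 360 genes with over 100 kb of first intron beyond 5 kb of every TSS, 20 were without one. The longest were ADARB2, a brain RNA-editing enzyme homologue, with 353 kb on chromosome 10, and CSMD1, a large transmembrane protein expressed in brain, with 352 kb on chromosome 8. DLGAP1, a postsynaptic scaffold protein, followed with 299 kb on chromosome 18, RBFOX3, the neuronal splicing factor also known as NeuN, with 170 kb on chromosome 17, and TAFA5, a secreted brain protein, with 142 kb on chromosome 22. These genes were picked for their length among those without a peak, so the values are a description. Copy number and mappability of these introns in D283 were not tested.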
